A study of Mus musculus and Rattus norvegicus with 79 samples.

Results

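Described here are sites in mouse liver chromatin that were bound by GR, the glucocorticoid receptor encoded by Nr3c1, and that lie inside genes. They were chosen as the peaks of the replicate-concordant list whose interval (mm10) overlapped a RefSeq gene interval (GRCm38.p6) by at least 1 bp, and 3684 of the 5772 concordant peaks, 63.8%, met that rule. Of the others, 1695 lay within 25 kb of a gene and 393 farther away. The choice used position alone and no expression value. The 3684 peaks fell in 2766 genes, of which 2107 code for protein (9.63% of the 21887 coding genes in the table), 615 are lncRNA genes and 44 are of other kinds.

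GR is a nuclear receptor that enters the nucleus when it binds a glucocorticoid and contacts DNA mostly far from gene starts, often within introns, at an inverted repeat of a short motif or beside other factors such as C/EBP, forkhead and STAT proteins. In liver it is known for raising genes of gluconeogenesis, amino acid breakdown and fasting metabolism, while insulin after a meal acts on many of the same genes in the other direction. A peak inside a gene marks where the receptor was found, not which gene it acts on.

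The chromatin was from unfed livers at ZT10, where ZT is the number of hours since lights on in a 12 h light and 12 h dark cycle, and all mice were trained to eat at night. It came from untreated C57BL/6 livers (GR ChIP and input) and from Nr3c1fl/fl livers taken 10 days after AAV-tbg-GFP or AAV-tbg-CRE (GR ChIP), 1 sample of each. Expression was read from 2 sets of livers. The first set was Nr3c1fl/fl mice injected with AAV-tbg-GFP (controls) or AAV-tbg-CRE 10 days before they were killed, 3 samples of each virus at ZT10 and ZT12 (unfed) and at ZT13, ZT14, ZT18 and ZT22 (fed), 36 libraries of RNA depleted of ribosomal RNA. All of these mice carried the floxed allele and a virus, and tbg is a hepatocyte promoter, so other liver cells were not targeted. The second set was untreated C57BL/6 mice, 3 fed and 3 unfed samples at each of ZT13, ZT14, ZT18 and ZT22, besides 3 unfed at ZT10, 27 libraries of polyA RNA. No age is given in the labels. In bulk liver RNA, fewer cells of a type and less RNA per cell cannot be told apart. The p-values measure the spread between these samples, since how the replicates were handled is not given in the labels.

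Total counts were 34.6 to 78.8 M per library in the Nr3c1fl/fl set and 23.9 to 91.8 M in the C57BL/6 set. Levels are given as CPM, counts scaled to the TMM-normalised library size. Nr3c1 itself, which holds 1 concordant peak, ranged from 146.8 to 322.8 CPM (median 212.5) in 18 GFP livers and from 102.5 to 201.0 CPM (median 126.7) in 18 CRE livers. It was lower by a log2 fold change of -0.63 ± 0.06 (± SE, adjusted p = 1.85e-09, mean of 6 times), although the arms overlapped, and the counts do not tell the floxed exon from the rest. One ribosomal RNA row took 2.23% to 28.5% of the counts of the Nr3c1fl/fl libraries, and over 20% in 6 of them, all 3 GFP libraries at ZT10 among these. GFP replicates 1 and 2 at ZT12 were also among the 6, so runs without these libraries keep only GFP replicate 3 at ZT12. Averages over times from such runs rest on that library for GFP at ZT12. Of the cell type markers, none of 10 Kupffer cell and none of 10 endothelial markers differed between CRE and GFP. In CRE livers 7 of 10 hepatocyte and 1 of 10 stellate cell markers were lower, and 1 of 7 bile duct markers was higher. In fed livers 9 of 10 endothelial and 2 of 10 hepatocyte markers were lower. Higher with food were 3 of 10 stellate cell, 1 of 6 bile duct and 1 of 10 hepatocyte markers. Alb, Apoa1 and the other hepatocyte markers summed to 51992 to 88787 CPM in the Nr3c1fl/fl libraries, against 133.3 to 339.9 CPM for the Kupffer markers. Among the C57BL/6 libraries, unfed replicate 3 at ZT18 had pancreatic markers at 247.7 CPM in sum, against at most 33.8 CPM in every other library, and fed replicate 1 at ZT14 had bile duct markers at 120.7 CPM.

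Most peaks lay away from the gene start. For 2465 peaks in coding genes with a start in the RefSeq promoter table, the centre of the peak was a median of 19245 bp from the nearest start of its own gene, and 7.87% lay within 1 kb of it. Along 1573 coding genes of at least 10 kb, cut into 10 equal parts, the first part held 14.7% of 2395 peaks and the last 7.85%, as the plot of peaks along genes shows. The concordant list holds exactly those 209-bp peaks called against chromatin of CRE livers (18543 in all) that overlap a peak called against input (23683 in all) by at least 1 bp, and its 5772 coordinates are those of the CRE-chromatin list. The words concordant, input and CRE chromatin are those the lists are named by. The labels file the concordant list under the C57BL/6 GR sample, although the CRE control is of Nr3c1fl/fl livers, and the library numbers in the descriptions of the C57BL/6 GR and input samples are crossed, so which livers gave the concordant peaks is not settled. Concordant peaks inside genes were within 1 kb of any gene's start in 9.49% of cases, those called against CRE chromatin alone in 26.5% and those called against input alone in 8.58%. Since the lists share peaks and only positions are given, these shares are descriptions with no test.

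**Figure D1:**
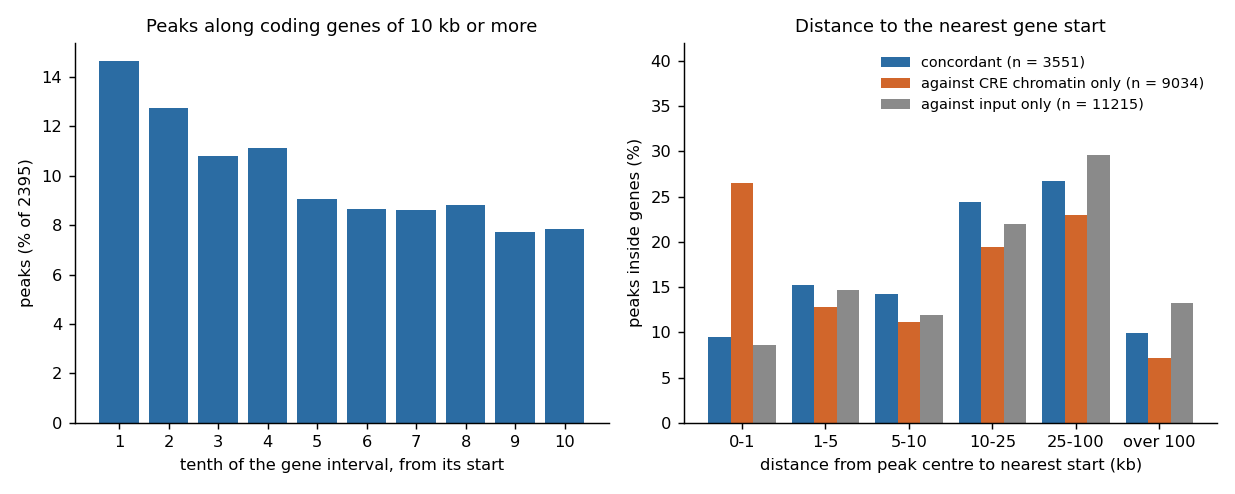
Left, share of concordant GR peaks (%) in each of 10 equal parts of the gene interval, counted from the gene start, over 2395 peaks in coding genes of at least 10 kb. Right, share of peaks inside genes (%) by distance of the peak centre to the nearest start of any gene (kb), for concordant peaks (blue), peaks called against CRE chromatin that are not concordant (orange) and peaks called against input that overlap no concordant peak (grey). The first part held 14.7% of peaks, and the orange list had 26.5% of its peaks within 1 kb of a start against 9.49% for the blue one.

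Gene intervals covered 47.6% of the span from the first to the last gene of the chromosomes, beside the 63.8% of concordant peaks inside them. The share inside genes ranged from 52.9% of 68 peaks on chromosome X to 71.9% of 221 peaks on chromosome 16. Long genes held a peak more often: 1.58% of coding genes under 10 kb did, 6.89% of those from 10 to 30 kb, 15.8% of those from 30 to 100 kb and 30.2% of longer ones. Per Mb of gene the classes held 3.99, 4.12, 4.09 and 2.28 peaks, so the density was no higher in the longest genes. A single peak was found in 2045 genes, 2 peaks in 448 genes and 3 or more in 273 genes, and neighbouring peaks of a gene were a median of 14279 bp apart over 1212 pairs. Arhgap26, which codes for a GTPase-activating protein, held the most, 11 peaks in 774669 bp. Chn2 held 9, and Fyb2, Plcb1, Foxn3 and Rad51b 8 each. Of the peaks, 3412 lay in 1 gene and 272 in 2 or more overlapping genes, and 571 lay in no coding gene.

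Sequence can be shown where a peak covered the window from 250 bases before a gene's start to 50 after it, which 141 of the peaks (3.83%) did, over 151 windows of 142 genes. The stretches below are shown because they are the ones among these peaks whose genes changed most with CRE. They are the part of the window that lay under the peak and upstream of the start, from RefSeq (GRCm38.p6), 5′ to 3′ on the strand of the gene, with capitals for matches to the GR core GNACANNNTGTNC or the GR hexamer TGTTCT on either strand. Of the 8 windows with the largest change past the threshold, 3 (Nlrp12, Gm7457 and Urad) had under 50 such bases and are not printed. Serpina3n, ranked 16, was added after its values were seen because it and Mt1 were the tested genes with a GR core in this part of the window. The positions are chr8:94178864-94179072, plus strand for Mt1, chr12:104406494-104406702, plus strand for Serpina3n, chr7:26939387-26939595, minus strand for Cyp2a22, chr12:73409564-73409662, minus strand for D830013O20Rik, chr9:119157094-119157250, minus strand for Acaa1b and chr6:115421816-115421938, plus strand for Pparg.
Mt1: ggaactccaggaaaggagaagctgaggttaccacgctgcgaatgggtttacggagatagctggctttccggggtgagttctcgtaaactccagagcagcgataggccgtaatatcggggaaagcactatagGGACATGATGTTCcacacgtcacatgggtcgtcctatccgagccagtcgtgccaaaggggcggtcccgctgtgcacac
Serpina3n: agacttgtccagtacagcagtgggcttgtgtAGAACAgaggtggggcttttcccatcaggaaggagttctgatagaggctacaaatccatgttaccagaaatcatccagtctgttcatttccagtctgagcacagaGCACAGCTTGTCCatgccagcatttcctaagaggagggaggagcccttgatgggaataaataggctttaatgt
Cyp2a22: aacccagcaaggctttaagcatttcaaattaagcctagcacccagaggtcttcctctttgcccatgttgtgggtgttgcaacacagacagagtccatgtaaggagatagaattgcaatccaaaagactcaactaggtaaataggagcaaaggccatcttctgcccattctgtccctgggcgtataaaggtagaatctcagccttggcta
D830013O20Rik: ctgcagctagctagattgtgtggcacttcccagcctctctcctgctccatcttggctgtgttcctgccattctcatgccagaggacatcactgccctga
Acaa1b: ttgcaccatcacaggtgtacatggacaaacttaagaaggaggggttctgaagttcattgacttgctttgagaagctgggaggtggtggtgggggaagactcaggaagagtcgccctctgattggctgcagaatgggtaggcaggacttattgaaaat
Pparg: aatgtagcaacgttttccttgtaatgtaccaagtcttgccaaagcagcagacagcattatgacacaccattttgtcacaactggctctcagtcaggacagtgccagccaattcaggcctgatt
The Mt1, Serpina3n and Cyp2a22 peaks end before the start used for the window and are inside the gene because the RefSeq interval begins farther upstream. The Pparg start is an internal one, 47.1% of the way along the interval.

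Mt1, which codes for a metal-binding metallothionein, was lower in CRE livers by -2.37 (log2, adjusted p = 2.94e-07), and Serpina3n, an acute phase serine protease inhibitor, by -0.47 (adjusted p = 2.60e-05). The 4 other printed stretches hold neither GR motif, and their genes were higher in CRE livers. Cyp2a22 was higher by 2.94 (adjusted p = 0.000132), D830013O20Rik by 1.80 (adjusted p = 0.0124), Acaa1b by 1.01 and Pparg by 0.88. The 3 unprinted windows hold neither motif in the 7, 13 and 40 bases of that part, and their genes were lower, Nlrp12 by -2.05, Gm7457 by -0.91 and Urad by -0.84, so genes without a motif changed both ways. Of 104 tested genes with a window under their own peak, 39 were called, 23 lower and 16 higher. The shares of all genes with a peak inside were 18.3% lower and 13.4% higher. Cyp2a22 has near-identical relatives whose reads may be shared. The windows were ranked by size of change, with no condition on level or on direction at each time. Cyp2a22 and D830013O20Rik are not among the genes named below as higher at all times. Those needed a mean of at least 5 CPM and the same direction at every time. Cyp2a22 and D830013O20Rik were thus below that level or changed direction among times, so their sizes are weak evidence of a strong response. Over all 151 windows under a peak, the GR core stood in 8 (5.30%), against 0.475% of all 32851 windows, and the hexamer in 25.8% against 19.0%. A peak could cover only part of a window, such as 57 bases for Nlrp12, so a match in the window need not lie under the peak. The core lay in the part under the peak and upstream of the start for 4 peaks. A core that ends in TGTTCT holds the hexamer too. The C/EBP-like motif TTGCNNAA stood in 29.8% against 10.8%, the forkhead motif TGTTTAC in 9.27% against 3.65%, the STAT-like motif TTCNNNGAA in 14.6% against 8.30% and the E-box CACGTG in 9.93% against 7.15%. A match is a description of letters and says nothing of which factor was bound.

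Of the 2766 genes, 2220 had a row in the count tables, and after the filter on low counts 2120 could be tested in the Nr3c1fl/fl livers and 2082 in the C57BL/6 livers. The 546 genes with no row have no expression value here. Genes with a peak inside were longer than all genes tested (median 62353 against 22561 bp) and more abundant (54.8 against 12.5 CPM in the Nr3c1fl/fl livers).

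The first comparison asked how genes with a peak inside differed in livers with less Nr3c1. Averaged over the 6 times, 388 of 2120 genes (18.3%) were lower in CRE livers and 285 (13.4%) were higher. Among all 15712 genes tested, 6.64% were lower and 7.92% higher. By number of peaks, the share that was lower was 16.9% of 1505 genes with 1 peak, 19.4% of 366 genes with 2 and 25.3% of 249 genes with 3 or more. Of 2380 genes with a peak within 25 kb but none inside, 11.3% were lower and 8.57% higher, and of 11212 genes with no peak within 25 kb 3.45% were lower and 6.74% higher. Genes with a peak inside were lower more often in each of 4 equal classes of gene length: 21.3% against 5.04% of other genes in the shortest class and 16.2% against 3.87% in the longest. In the most abundant of 4 classes of level the shares were 19.7% and 8.04%. Without the 6 libraries rich in the ribosomal RNA row, whose mean leaves out ZT10, 290 were lower and 176 higher.

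**Figure D2:**
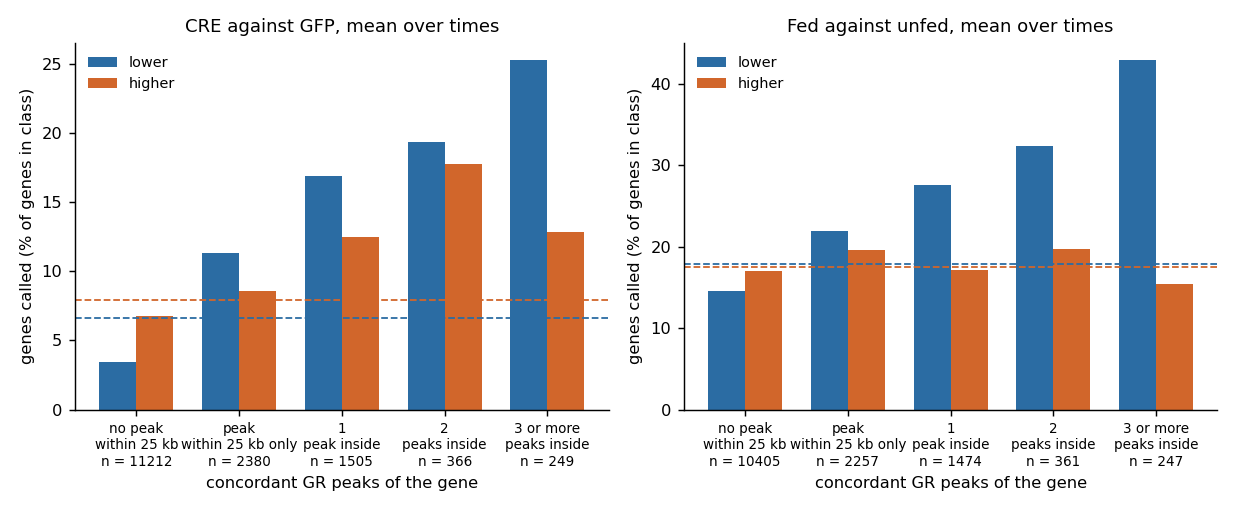
Share of genes (%) past the adjusted p threshold of 0.05, lower (blue) or higher (orange), by the number and place of their concordant GR peaks, for CRE against GFP averaged over 6 times (left) and fed against unfed averaged over 4 times (right). Dashed lines give the shares among all genes tested. In both panels the blue bars rise from genes with no peak within 25 kb (3.45% and 14.5%) to genes with 3 or more peaks inside (25.3% and 42.9%).

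The genes that were lower in CRE livers had their nearest peak at a median of 7186 bp from their own start (308 genes with a start), and those not called at 13619 bp (1152 genes). Their median length was 49128 bp against 63902 bp. Of 204 tested genes with a peak inside and within 1 kb of their start, 23.5% were lower and 13.7% higher. Of the 1916 others with a peak inside, 17.7% were lower and 13.4% higher. These others include genes with no start in the RefSeq promoter table, whose distance is unknown. Of the 2766 genes with a peak inside, 2160 had such a start.

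By time, the share of genes with a peak inside that were lower was 2.22% at ZT10 (47 genes, all genes 0.471%), 9.62% at ZT12 (204 genes, all genes 2.25%), 11.2% at ZT13 (237 genes, all genes 3.15%) and 2.92% at ZT14 (62 genes, all genes 0.987%). At ZT18 it was 5 genes (0.236%, all genes 0.0636%) and at ZT22 7 genes (0.330%, all genes 0.0573%). Higher were 4 genes at ZT10 (0.189%, all genes 0.223%), 58 at ZT12 (2.74%, all genes 1.5%), 70 at ZT13 (3.30%, all genes 1.89%), 25 at ZT14 (1.18%, all genes 0.586%), 1 at ZT18 (all genes 0.0382%) and 1 at ZT22 (all genes 0.0891%). At ZT10, the time of the chromatin, 47 of the 74 genes that were lower and 4 of the 35 that were higher held a concordant peak inside. Of all 15712 genes tested, 2120 held one. Fitted on the libraries of ZT13 alone, 30 genes were lower and none higher there. Without the libraries rich in the ribosomal RNA row, only GFP replicate 3 was left as a control at ZT12, so no counts are given for that time. That row took 4.52% to 24.5% of the counts of GFP and 3.62% to 7.38% of CRE livers at ZT12, and its part in the result was not tested. Without GFP replicate 2 at ZT12 118 were lower there, and at ZT10 29 were lower without CRE replicate 1 and 21 without CRE replicate 2. The counts below moved by over 1.5 times as well. At ZT14, 31 were lower without GFP replicate 1, 29 without CRE replicate 2 and 27 without CRE replicate 3, and 7, 7 and 8 were higher. Leaving out any 1 library of ZT12 left 13 to 37 higher there. At ZT13, 15 were higher without GFP replicate 1, 24 without GFP replicate 2, 35 without CRE replicate 2 and 136 without GFP replicate 3. At ZT10 none was higher without GFP replicate 3, 1 without GFP replicate 1, CRE replicate 2 or CRE replicate 3, and 2 without GFP replicate 2. Leaving out any 1 library of ZT18 left 1 or 2 genes lower and none higher. At ZT22 none was lower without GFP replicate 2, CRE replicate 2 or CRE replicate 3 or with only the groups compared, 2 without CRE replicate 1, 3 without GFP replicate 3 and 1 without the libraries rich in the ribosomal RNA row, and 0 to 6 were higher with 1 library left out. The change itself differed among the 6 times for 64 genes with a peak inside (3.02%, all genes 0.687%), or for 133 without GFP replicate 3 at ZT13, 42 without CRE replicate 1 or 2 at ZT13 and 41 without CRE replicate 3 at ZT22.

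**Figure D3:**
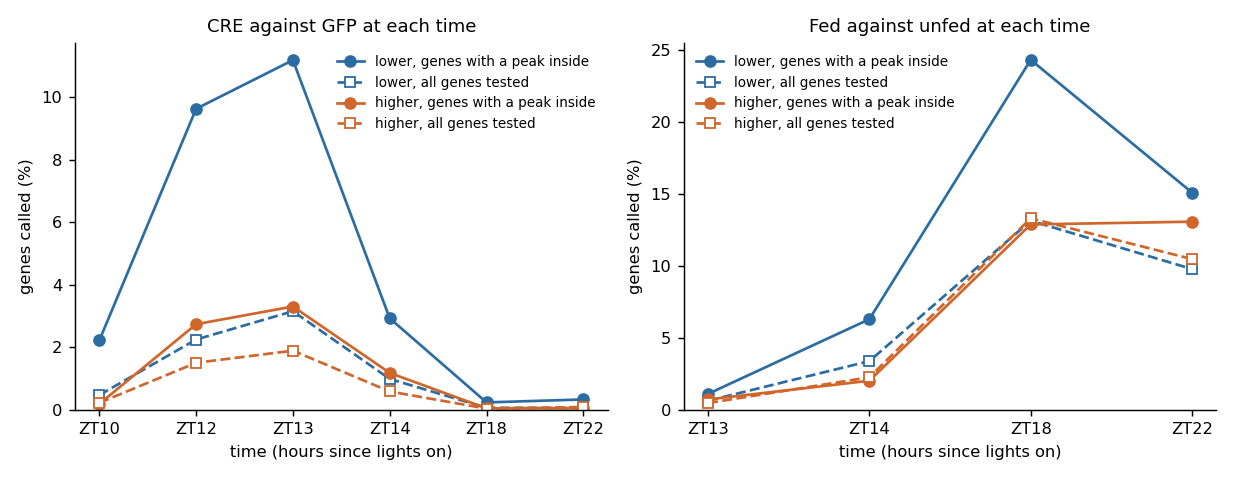
Share of genes (%) past the adjusted p threshold of 0.05 at each time, lower (blue) or higher (orange), for genes with a concordant GR peak inside (filled circles) and all genes tested (open squares), CRE against GFP on the left and fed against unfed on the right. The filled blue circles peak at ZT13 on the left (11.2%) and at ZT18 on the right (24.3%).

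With CRE, 18.3% of all genes with a peak inside were lower and 13.4% higher, and 6.64% and 7.92% of all genes tested. Among 30 textbook GR targets, a list chosen with earlier results of these data known, 16 held a concordant peak inside. Of these 16, 12 were lower in CRE livers and none was higher. Of the 14 others, which include Klf9, Dusp1, Pck1 and Igfbp1, 10 were lower and 1 higher. Lpin1, which codes for the phosphatidate phosphatase lipin 1, held 3 peaks, the nearest at chr12:16618556-16618764, 7694 bp from an annotated start. It was at 725.4, 627.1 and 636.5 CPM in the GFP livers at ZT10 and at 100.7, 122.9 and 147.9 CPM in the CRE livers. The groups did not overlap, and the change was -2.42 ± 0.24 (adjusted p = 6.95e-07) at ZT10 and -2.53 ± 0.10 on average (adjusted p = 1.46e-17). In GFP livers Lpin1 reached 1936 ± 432 CPM (SD, n = 3) at ZT12 and was at 125.8 ± 12.9 CPM at ZT18, while CRE livers were at 113.8 ± 18.2 and 64.8 ± 7.44 CPM. The difference at ZT18 was -0.96 (adjusted p = 0.108), and the change differed among times (adjusted p = 1.15e-08).

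Zbtb16, which codes for a zinc finger transcription factor, held 6 peaks. It was at 425.9, 325.1 and 390.6 CPM in GFP and 56.4, 44.2 and 29.0 CPM in CRE livers at ZT10, again without overlap. The change was -3.14 ± 0.34 (adjusted p = 2.87e-06) at ZT10 and -2.17 ± 0.13 on average. Fkbp5, a co-chaperone that binds the GR complex, held 4 peaks, all over 25 kb from the start, the nearest at 25570 bp. It was at 111.4, 104.7 and 126.5 CPM in GFP and 49.6, 35.0 and 37.0 CPM in CRE livers at ZT10 and differed by -1.50 ± 0.31 there and by -3.35 ± 0.32 at ZT13. Tsc22d3, the glucocorticoid-induced leucine zipper, held 5 peaks, 1 of them 688 bp from an annotated start. It was lower by -1.57 at ZT10 and at -0.07 at ZT18 (adjusted p = 0.971), and was lower by -0.997 ± 0.122 on average.

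Pfkfb3, whose enzyme makes the activator of glycolysis fructose 2,6-bisphosphate, was lower by -0.91 ± 0.10 on average and by -2.12 at ZT12. Errfi1, a feedback inhibitor of the EGF receptor with a peak 280 bp from its start, was lower by -0.75 ± 0.08. Angptl4, an inhibitor of lipoprotein lipase, was lower by -0.74 ± 0.15, the clock gene Per1 by -0.67 ± 0.10, the tyrosine aminotransferase Tat by -0.59 ± 0.09, the transcription factor Klf15 (4 peaks) by -0.34 ± 0.07 and Hsd11b1, which regenerates active glucocorticoid, by -0.17 ± 0.05 (adjusted p = 0.0219). Hsd11b1 was at -0.11 (adjusted p = 0.353) without the libraries rich in the ribosomal RNA row. The 4 genes of the 16 that did not pass were Bcl6 at 0.12, Per2 at 0.05, Sgk1 at -0.03 and Foxo3 at -0.15 (4 peaks, adjusted p = 0.113).

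**Figure D4:**
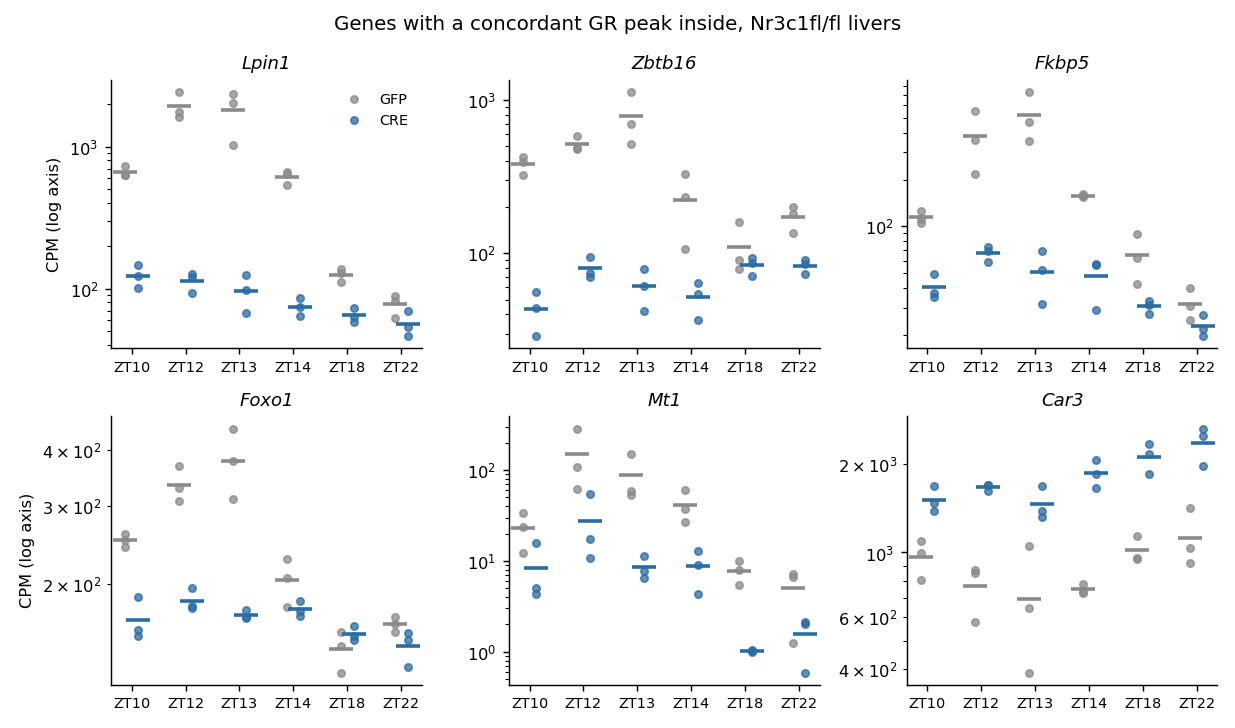
CPM on a log axis of 6 genes with a concordant GR peak inside, by time, in Nr3c1fl/fl livers with the GFP virus (grey) or the CRE virus (blue). Points are single livers, 3 per group, and bars are group means. For Lpin1 the GFP livers rise to 1936 CPM on average at ZT12 and fall towards the CRE livers by ZT18, while for Car3 the CRE livers lie above the GFP livers at every time.

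Among genes with a mean of at least 5 CPM, those that were lower by the most and in one direction at all 6 times were Moxd1, Cyp17a1, Scara5, Eif4ebp3, Lpin1, Mfsd2a, 1700045H11Rik, Mt1, Cyp39a1 and Zbtb16. Cyp17a1, a steroid hydroxylase, was at 3.05 to 36.8 CPM (median 9.04) in 18 GFP livers and 0.580 to 2.99 CPM (median 1.31) in 18 CRE livers. The arms did not overlap, and the change was -3.03 ± 0.23 (adjusted p = 8.33e-11). Eif4ebp3, which codes for a protein that binds the translation factor eIF4E, ranged from 12.7 to 85.8 CPM (median 42.4) in GFP and 3.29 to 6.82 CPM (median 6.16) in CRE livers, a change of -2.78 ± 0.13. Cyp39a1, an oxysterol hydroxylase, ranged from 25.8 to 152.8 CPM (median 45.8) in GFP and 6.49 to 17.4 CPM (median 9.61) in CRE livers, a change of -2.30 ± 0.14. For these 3 genes every GFP liver was above every CRE liver.

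All 3 were also on the short lists of the last times. At ZT18 the 5 genes that were lower were Eif4ebp3, Cyp17a1, Cyp39a1, Slc37a4 and Atp2b2, and the one that was higher was Car3. At ZT22 the first 3 of these were lower again, beside Hp, Mtss1, Spon1 and Cep85, and Car3 was again higher. These names were chosen after their values were seen and rest on counts that fell, to 0 in some cases, with 1 library left out (above). Scara5, a ferritin receptor with 4 peaks, was lower by -2.83 ± 0.36 and Mfsd2a, a transporter of lysophospholipids, by -2.52 ± 0.33. The lncRNA gene 1700045H11Rik was lower by -2.41 ± 0.21. Its only peak, chr4:150853972-150854180, is also the peak of Errfi1 given above. Moxd1 was at -4.23 ± 0.76 (adjusted p = 0.000180), with 0 to 93.1 CPM in GFP livers (median 4.85) and 0 to 5.31 CPM in CRE livers (median 0.550). Without the libraries rich in the ribosomal RNA row it was at -1.83 and did not pass. That mean leaves out ZT10. At ZT10 Moxd1 was at 37.4, 31.2 and 25.3 CPM in GFP and 0.175, 0 and 0 CPM in CRE livers.

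Higher in CRE livers at all 6 times were Gbp11, Cfap54, Car3, Acaa1b, Osbpl3, Pparg, Gm4952, Pde4d, Robo1 and Klhdc7a. Car3, a carbonic anhydrase abundant in lipid-storing tissue, ranged from 388.6 to 1420 CPM (median 894.2) in GFP and from 1318 to 2649 CPM (median 1696) in CRE livers, and the arms overlapped at their edges. The change was 1.05 ± 0.09 (adjusted p = 6.78e-10). Acaa1b, a peroxisomal thiolase, rose by 1.01 ± 0.13 and Pparg, a nuclear receptor of fat storage, by 0.88 ± 0.15, from a median of 14.8 to 29.2 CPM. Osbpl3 rose by 0.97 ± 0.17, the phosphodiesterase gene Pde4d by 0.79 ± 0.10, its peak 945728 bp from the nearest annotated start, the axon guidance receptor gene Robo1 by 0.78 ± 0.13 and Cfap54 by 1.07 ± 0.16. Gbp11, which RefSeq annotates as a transcribed pseudogene, was at 1.47 ± 0.45 (adjusted p = 0.0236). It ranged from 3.41 to 95.4 CPM in GFP and 11.2 to 263.7 CPM in CRE livers. It lost the call without CRE replicate 1 at ZT18 (1.07, adjusted p = 0.0870) or at ZT22 (1.23, adjusted p = 0.0618). The call was also lost without the libraries rich in the ribosomal RNA row (1.39). Most of its peak, chr5:105346471-105346679, lay outside the gene interval, which ends at 105346476.

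At ZT10 alone, the genes named for size and for groups that did not overlap were Cyp17a1, Zbtb16, Cyp39a1, Lpin1, Eif4ebp3 and Tsku among those that were lower. Tsku, a secreted proteoglycan made by hepatocytes, was at 84.4, 171.0 and 104.4 CPM in GFP and 31.6, 33.1 and 44.2 CPM in CRE livers, a change of -1.72 ± 0.33 that missed the threshold without CRE replicate 2 (-1.66, adjusted p = 0.0588) or GFP replicate 2 (-1.37, adjusted p = 0.0614). Higher were Sel1l3 (0.85 ± 0.19), Nav2 (0.76 ± 0.17) and Net1 (0.46 ± 0.10), and each lost the call without at least 1 library of ZT10, Nav2 with an adjusted p up to 0.106, Net1 up to 0.148 and Sel1l3 up to 0.242. Osbpl3 also passed at ZT10, with 1.90 ± 0.42, but its groups overlapped. It was at 6.65, 11.2 and 4.13 CPM in GFP and 7.19, 42.5 and 30.6 CPM in CRE livers.

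For the pathway counts that follow, the shares of all genes with a peak inside were 18.3% lower and 13.4% higher with CRE. Among all genes tested they were 6.64% and 7.92%. Amino acid breakdown and the urea cycle had 14 tested genes with a peak inside, 10 lower and none higher. Their median change was -0.45 against -0.01 for all genes with a peak inside. Arginase Arg1 was at 499.0 to 979.1 CPM in GFP and 296.2 to 482.6 CPM in CRE livers without overlap and lower by -0.76 ± 0.06, Aass, which starts lysine breakdown, was lower by -0.81 ± 0.10, the aspartate aminotransferase Got1 by -0.85 ± 0.15 and the amino acid transporter Slc38a2 by -0.62 ± 0.08. In gluconeogenesis 5 of 9 were lower and none higher. Foxo1, an insulin-inhibited activator of glucose production with 1 peak at chr3:52290831-52291039, was at 251.5, 258.5 and 242.6 CPM in GFP and 157.7, 152.9 and 186.9 CPM in CRE livers at ZT10 and at 142.5 ± 14.9 and 154.3 ± 5.59 CPM at ZT18. Its change was -0.60 ± 0.11 at ZT10 and 0.11 at ZT18 (adjusted p = 0.842), and it differed among times (adjusted p = 5.56e-05). Slc37a4, the carrier of glucose 6-phosphate, was lower by -0.66 ± 0.06.

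Of 9 acute phase and STAT genes 4 were lower and none higher. Il1r1, a receptor of interleukin 1, was lower by -1.35 ± 0.13, Il6ra, a receptor of interleukin 6 with 4 peaks, the nearest 520 bp from its start, by -1.17 ± 0.11, and the hemoglobin-binding Hp by -0.76 ± 0.10. In glycolysis and glycogen 3 of 9 were lower, among them Pfkfb3 and the ketohexokinase gene Khk (-0.28 ± 0.08), and none was higher. Fatty acid and triglyceride synthesis was the list with more genes higher, 6 of 14, against 3 lower. Elovl5 was higher by 0.67 ± 0.09 and Acly by 0.39 ± 0.08, while Lpin2 was lower by -0.63 ± 0.09. Of 10 bile acid and xenobiotic genes 3 were lower (Cyp27a1 by -0.41 ± 0.06, Por by -0.49 ± 0.10) and 1 higher (Abcc3 by 0.54 ± 0.11). Of 5 cholesterol genes 2 were lower, Scarb1 by -0.29 ± 0.08 and Srebf2 by -0.20 ± 0.05. Scarb1 missed the threshold without the libraries rich in the ribosomal RNA row (-0.25, adjusted p = 0.0554).

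Of 13 hepatocyte transcription factors with a peak inside, 2 were lower, such as Nr1i2 (-0.30 ± 0.08), and 2 higher, such as Nfib (7 peaks) by 0.21 ± 0.05. Nr1i2 was at -0.23 (adjusted p = 0.105) without the libraries rich in the ribosomal RNA row. Of 10 insulin signalling genes only Foxo1 was lower, of 6 clock genes only Per1 and of 5 genes of fatty acid oxidation 1, and in these 3 lists none was higher. None of 3 chaperone genes passed either way. Among GR and its partners Nr3c1 and Hsd11b1 were lower and the mineralocorticoid receptor gene Nr3c2 was higher by 0.60 ± 0.11. Of 10 tested genes with the most peaks, Arhgap26, Chn2, Foxn3, Fyb2, Plcb1, Rad51b, Cmah, Lpp, Mad1l1 and Nfia, 2 passed: Mad1l1 (-0.66 ± 0.10) and Nfia (-0.26 ± 0.08, adjusted p = 0.0304), and the others were between -0.15 and 0.43. Ties at 7 peaks were broken by name, and Nfib (above) and Rora (0.01) also held 7. Nfia lost the call without the libraries rich in the ribosomal RNA row (-0.27, adjusted p = 0.133) and without each of 8 single libraries (adjusted p up to 0.0561).

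Members of the same lists with no peak inside are set beside these counts, with no test of the difference. Lower and higher with CRE were 5 and 2 of 12 amino acid genes, 1 and 0 of 8 of gluconeogenesis, 5 and 0 of 14 of the acute phase, 4 and 2 of 13 of glycolysis and glycogen and 1 and 1 of 8 of fatty acid synthesis. The counts were 0 and 2 of 13 for bile acid and xenobiotic genes, 2 and 3 of 15 for cholesterol, 4 and 1 of 18 for hepatocyte factors, 1 and 0 of 12 for insulin signalling, 1 and 1 of 21 for chaperones and 0 and 0 of 12 for GR partners. Of 17 genes of fatty acid oxidation with no peak inside 10 were higher and none lower (median 0.30), and of 14 clock genes 5 were higher and 3 lower.

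The second comparison asked how the same genes differed between fed and unfed C57BL/6 livers of the same hour. Averaged over 4 times, 629 of 2082 genes with a peak inside (30.2%) were lower in fed livers and 362 (17.4%) were higher, against 17.9% lower and 17.5% higher among all 14744 genes tested. The share that was lower was 27.5% with 1 peak, 32.4% with 2 and 42.9% with 3 or more, and the share that was higher was 17.2%, 19.7% and 15.4%. Of genes with no peak within 25 kb, 14.5% were lower and 17.0% higher. In the most abundant of 4 classes of level, 38.7% of genes with a peak inside and 26.3% of the others were lower, and in the longest of 4 classes of length 30.5% and 22.2%.

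By time, 23 genes with a peak inside were lower at ZT13 (1.10%, all genes 0.631%), 131 at ZT14 (6.29%, all genes 3.38%), 506 at ZT18 (24.3%, all genes 13.1%) and 314 at ZT22 (15.1%, all genes 9.77%). Higher were 15 at ZT13 (0.720%, all genes 0.468%), 42 at ZT14 (2.02%, all genes 2.26%), 268 at ZT18 (12.9%, all genes 13.3%) and 272 at ZT22 (13.1%, all genes 10.5%). At ZT14 and ZT18 the shares that were higher were no larger than those of all genes. Without fed replicate 1 at ZT14 and unfed replicate 3 at ZT18, the 2 libraries with signs of other tissue, 69 were lower at ZT14 and 379 at ZT18. Without fed replicate 1 at ZT18, 337 were lower there. At ZT13, 56 were lower without unfed replicate 1, 12 without unfed replicate 2, 13 without unfed replicate 3 and 6 without fed replicate 2. There 32 were higher without unfed replicate 1, 2 without unfed replicate 2 or fed replicate 2, 4 without unfed replicate 3 and 6 without fed replicate 3. At ZT14, 61 were lower without fed replicate 1, 71 to 76 without each of the unfed replicates and 76 without fed replicate 3, and 16, 21 and 20 were higher without unfed replicates 1, 2 and 3 and 27 without fed replicate 1. The response to food differed among times for 288 genes with a peak inside (13.8%, all genes 8.1%).

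Lower in fed livers at all 4 times were Mt1, Angptl4, Hdc, D7Ertd143e, Tcp11l2, Slc8b1, Rassf4, Mfsd2a, Cdkn1a and Fbxo31. At ZT18 Mt1 was at 228.8, 64.9 and 190.5 CPM in unfed and 8.35, 8.82 and 7.88 CPM in fed livers, and on average it was lower by -2.46 ± 0.22 (adjusted p = 2.76e-09). Angptl4 ranged from 163.5 to 289.8 CPM (median 219.3) in 12 unfed and from 30.3 to 122.5 CPM (median 87.4) in 12 fed livers, without overlap, and was lower by -1.66 ± 0.14. Hdc, the histidine decarboxylase, was lower by -1.62 ± 0.11, Tcp11l2 by -1.48 ± 0.07, Slc8b1, a mitochondrial sodium and calcium exchanger, by -1.45 ± 0.09 and Rassf4 by -1.40 ± 0.16. Cdkn1a, an inhibitor of the cell cycle, was lower by -1.19 ± 0.25 and Fbxo31, a ubiquitin ligase subunit, by -1.15 ± 0.10. In the CRE livers, from other mice, Cdkn1a (-1.09 ± 0.21) and Fbxo31 (-0.95 ± 0.07) were lower too on average. Hdc (-0.23, adjusted p = 0.136) and Slc8b1 (-0.12, adjusted p = 0.372) did not pass there. Cdkn1a was near the floor, with 0.580 to 12.9 CPM in GFP (median 3.39) and 0.298 to 13.6 CPM in CRE livers (median 0.898). At ZT18 its mean was 3.60 CPM in GFP and 4.09 CPM in CRE livers. Its change with CRE differed among times (adjusted p = 0.0318).

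Among the genes higher in fed livers at all 4 times were Aacs, Elovl6, Acly, Col15a1, Gbp11, Ccnd1, Rcan1, Car3 and Cyp51. Aacs, which activates acetoacetate for lipid synthesis and held 3 peaks, was at 31.2, 20.9 and 25.8 CPM in unfed and 459.6, 376.6 and 405.0 CPM in fed livers at ZT18, and rose by 2.47 ± 0.17 on average (adjusted p = 4.75e-11). Elovl6, an elongase of fatty acids with peaks 59584 and 60695 bp from its start, was at 55.3, 54.2 and 45.6 CPM unfed and 501.2, 455.8 and 518.8 CPM fed at ZT18, and rose by 1.76 ± 0.06 on average. The ATP citrate lyase gene Acly rose by 1.40 ± 0.07, the collagen gene Col15a1 by 1.33 ± 0.14, the cyclin gene Ccnd1 by 1.21 ± 0.19, the calcineurin regulator gene Rcan1 by 1.17 ± 0.06 and Car3 by 1.13 ± 0.12. Cyp51, an enzyme of cholesterol synthesis, rose by 1.06 ± 0.08.

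**Figure D5:**
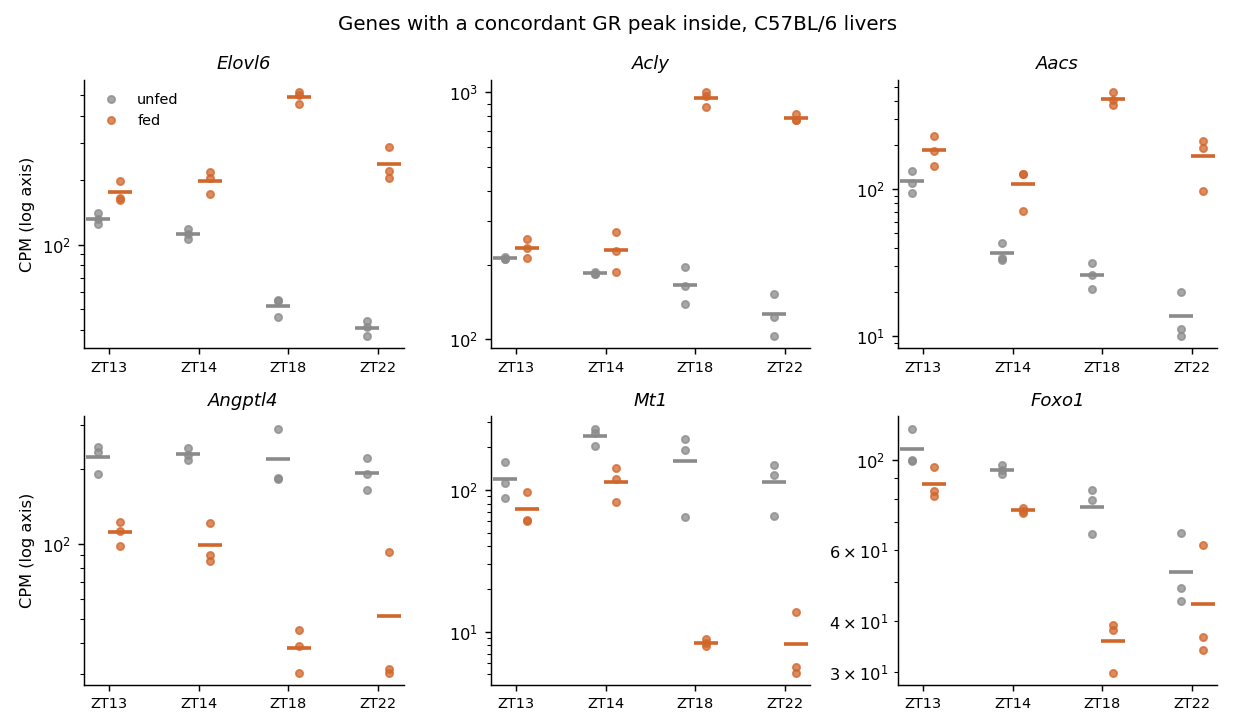
CPM on a log axis of 6 genes with a concordant GR peak inside, by time, in unfed (grey) and fed (orange) C57BL/6 livers. Points are single livers, 3 per group, and bars are group means. Elovl6 separates most at ZT18, with 45.6 to 55.3 CPM unfed and 455.8 to 518.8 CPM fed, and Angptl4 of fed livers lies below that of unfed livers at each of the 4 times.

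With food, 30.2% of all genes with a peak inside were lower and 17.4% higher, and 17.9% and 17.5% of all genes tested. Of the 16 textbook GR targets with a peak inside, 11 were lower in fed livers, and Per2, a clock gene, was higher (0.67 ± 0.08). Of the 14 with no peak inside 12 were lower and 1 higher, with a median of -0.66 against -0.37 for the 16. Fkbp5 was lower by -0.90 ± 0.13, Zbtb16 by -0.84 ± 0.21, Per1 by -0.58 ± 0.17, Errfi1 by -0.41 ± 0.12, Tat by -0.39 ± 0.12 and Foxo3 by -0.35 ± 0.08. Klf15 (-0.19), Sgk1 (-0.23) and Hsd11b1 (-0.19) passed, but lost the call when any one of 14, 4 and 18 single libraries was left out, with adjusted p up to 0.0849, 0.0567 and 0.105. They also lost it without the 2 libraries with signs of other tissue (adjusted p = 0.140, 0.0830 and 0.135). Lpin1 was at -0.48 ± 0.22 (adjusted p = 0.100), Pfkfb3 at 0.21, Bcl6 at -0.20 and Tsc22d3 at 0.05.

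For the pathway counts with food, the shares of all genes with a peak inside were 30.2% lower and 17.4% higher. Among all genes tested they were 17.9% and 17.5%. In gluconeogenesis 8 of 9 tested genes with a peak inside were lower in fed livers and none higher. Among the 8 were Got1 (-0.71 ± 0.10), Ppargc1b (-0.74 ± 0.07) and Foxo1 (-0.50 ± 0.08). All 5 genes of fatty acid oxidation were lower, with Cpt1a, which admits fatty acids to mitochondria and held 2 peaks, at -0.89 ± 0.06, the lipase gene Pnpla2 at -0.93 ± 0.09 and Hadhb at -0.20 ± 0.05. Acute phase and STAT genes were lower in 7 of 9 cases (Il1r1 by -0.93 ± 0.10, Il6ra by -0.68 ± 0.13, Stat3 by -0.39 ± 0.06) and amino acid genes in 9 of 14, with Kyat1 higher by 0.48 ± 0.07. Of 13 hepatocyte transcription factors 7 were lower and 1 higher, and of 10 bile acid and xenobiotic genes 5 were lower, such as the cytochrome P450 reductase gene Por (-1.01 ± 0.08), Abcc3 (-0.55 ± 0.06) and Abcc2 (-0.25 ± 0.05), and 2 higher. Fatty acid and triglyceride synthesis was the reverse, with 9 of 14 higher and 2 lower. Acaca, whose enzyme makes malonyl-CoA, rose by 1.01 ± 0.06, and Lpin2 fell by 1.09 on the log2 scale (SE 0.09).

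Cholesterol genes were higher in 4 of 5 cases, such as Cyp51 and Srebf2 (by 0.31 ± 0.07), and Scarb1 (5 peaks) was lower by -0.43 ± 0.07. In glycolysis and glycogen 4 of 9 were higher, with the glycogen phosphorylase gene Pygl at 0.45 ± 0.05 and Khk at 0.35 ± 0.06, and 1 was lower. Insulin signalling was mixed, 4 of 10 lower and 3 higher: the insulin receptor gene Insr was lower by -0.38 ± 0.04, and Pik3r1, a regulatory subunit of the phosphoinositide 3-kinase with 4 peaks, rose by 0.44 ± 0.05. Of 6 clock genes 3 were lower, among them Cry2 (-0.26 ± 0.05) and Rora (7 peaks, -0.34 ± 0.06), and 1 was higher. Of 3 chaperone genes, Hyou1 (1.00 ± 0.12) and Dnajc3 (0.19 ± 0.05) were higher and Atf6 (-0.23 ± 0.06) lower. Of the 5 genes of GR and its partners, 2 were lower, such as the corepressor gene Ncor1 (-0.20 ± 0.04), and the remodeller gene Smarca4 was higher by 0.26 ± 0.04. Among the 10 genes with the most peaks, Arhgap26 (0.57 ± 0.08), Cmah (0.45 ± 0.07), Mad1l1 (0.30 ± 0.09) and Fyb2 (0.32 ± 0.12, adjusted p = 0.0358) were higher, Foxn3 (-0.25 ± 0.06), Nfia (-0.25 ± 0.06) and Lpp (-0.14 ± 0.04) were lower, and Chn2, Plcb1 and Rad51b did not pass. Of the 2 others with 7 peaks, Rora was lower (above) and so was Nfib (-0.13 ± 0.05, adjusted p = 0.0486). Fyb2 missed the threshold without each of 10 single libraries (adjusted p up to 0.0849) and without the 2 libraries with signs of other tissue (adjusted p = 0.0578), and Lpp without 1, unfed replicate 3 at ZT22 (-0.11, adjusted p = 0.0525).

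Of the members of the same lists with no peak inside, lower and higher with food were 4 and 1 of 8 of gluconeogenesis, 13 and 0 of 17 of fatty acid oxidation, 2 and 2 of 14 of the acute phase, 5 and 0 of 12 amino acid genes, 4 and 2 of 18 hepatocyte factors and 8 and 3 of 13 bile acid and xenobiotic genes. Fatty acid synthesis had 1 and 7 of 8, glycolysis and glycogen 1 and 5 of 13, insulin signalling 7 and 0 of 12, clock genes 6 and 2 of 14 and GR partners 5 and 3 of 11. All 15 cholesterol genes with no peak inside were higher (median 1.22 against 0.31 for the 5 with a peak), and so were 16 of 21 chaperones, with 1 lower. No test was made of these differences.

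The 2 sets share no mice, so their calls can be set side by side for the 2076 genes with a peak inside that were tested in both. Of 388 genes lower in CRE livers, 199 (51.3%) were lower in fed livers, 38 (9.79%) were higher and 151 were not called. Of 284 genes higher in CRE livers, 67 (23.6%) were lower in fed livers, 77 (27.1%) were higher and 140 were not called. Of the 1404 genes not called with CRE, 361 (25.7%) were lower and 246 (17.5%) higher in fed livers. Counted from food, 199 of 627 genes lower in fed livers (31.7%) and 38 of 361 genes higher in fed livers (10.5%) were lower in CRE livers. These are counts of calls from fits of unlike power and library type, and no test was made of their difference.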

How the data were processed

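RNA-seq of liver and GR ChIP-seq of liver chromatin were used as deposited. The expression values are gene counts that the authors deposited as 2 tables, not normalized, and the rat table was not used here. The submitters' processing notes name the tools DESeq2, HOMER and STAR and the builds rn5 and mm10, with no role for any of them. The deposited peak lists hold chromosome, start and end only, and starts were read as counted from 0.

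Peaks were intersected with RefSeq gene intervals with bedtools 2.31.1 (at least 1 bp). Counts were filtered with filterByExpr, scaled with TMM and fitted per table over all groups with edgeR 4.0.16 (quasi-likelihood) in R 4.3.3, with Benjamini-Hochberg adjustment over all genes tested and a threshold of 0.05. Every adjusted p in the text comes from these fits or, where libraries are named as left out, from the same fit without them. The fit was tested on simulated data. Rows that named no gene of the table took 2.43% to 28.6% of counts in the Nr3c1fl/fl table and 0.308% to 2.24% in the C57BL/6 table.

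Genes named were the GR targets with a peak inside, the 10 tested genes with the most peaks (ties by name), up to 10 genes per direction with the largest mean change (mean CPM of at least 5, one direction at every time), up to 6 per direction at ZT10 whose groups did not overlap, and up to 3 per pathway list with the smallest p. Members and lists were chosen with earlier results of these data known. Alternatives were DESeq2 1.42.0, its size factors, no filter, a replicate block, the ribosomal RNA share as a covariate, only the groups compared, and leaving out libraries. Exon and intron positions were not analysed here. Some genes that the naming rule gave are not reported here.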

Additional observations from a re-analysis of the deposited data

Results flagged for a closer look

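The change with CRE differed among the 6 times, by the interaction term of the edgeR fit (adjusted p in parentheses), for 13 of the named genes: Aass (0.0431), Cdkn1a (0.0318), Fbxo31 (0.00397), Fkbp5 (0.00258), Foxo1 (5.56e-05), Il1r1 (0.00502), Lpin1 (1.15e-08), Nav2 (0.038), Pfkfb3 (0.00382), Rcan1 (0.0400), Slc38a2 (0.0298), Tsc22d3 (0.0365) and Zbtb16 (0.000266). For Lpin1, Zbtb16, Fkbp5, Tsc22d3 and Il1r1 the CRE minus GFP change was more negative at ZT10 to ZT14 than at ZT18 and ZT22.

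The response to food differed among the 4 times by the same test for Aacs (3.55e-05), Acaca (7.95e-08), Acly (8.87e-11), Angptl4 (0.0372), Arhgap26 (0.0291), Car3 (2.09e-05), Cmah (0.0466), Col15a1 (5.93e-05), Cpt1a (3.27e-06), Cyp51 (1.83e-06) and Elovl6 (4.49e-11). It also differed for Fbxo31 (0.00237), Fkbp5 (0.000622), Foxn3 (0.0144), Foxo1 (0.0401), Hdc (0.0013), Il1r1 (0.00699), Khk (0.0114), Kyat1 (0.0358), Mt1 (0.000204) and Pnpla2 (0.00231). The same held for Eif4ebp3 (0.0198), Hp (0.0101), Robo1 (0.0135), Scara5 (0.0154), Por (1.33e-05), Ppargc1b (0.0425), Prox1 (0.000934), Pygl (0.000487), Rassf4 (0.0232), Rcan1 (0.0064), Slc8b1 (0.0201), Stat3 (0.00666) and Tcp11l2 (0.00162). No group had enough samples for a test of single outlying livers.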

How the results depend on the processing

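Of 156 values of single genes, 128 passed the threshold, none of these changed direction under any alternative run, and 113 also passed under all of them. The other 15 lost the call at least once. In the other direction, 9 of the 28 values that did not pass were past the threshold in at least 1 alternative run. Of the 28 that did not pass, 3 changed sign: Tsc22d3 with food, which was at -0.0525 without fed replicate 2 at ZT22 and ranged up to 0.140 over the libraries left out, Chn2 with food, which ranged from -0.0557 to 0.0290, the latter without the 2 libraries with signs of other tissue (0.00415 without fed replicate 1 at ZT14 alone), and Plcb1 with CRE, at 0.0201 without the libraries rich in the ribosomal RNA row.

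Counts below are of genes with a peak inside, and the cause of each shift was not tested. Without the libraries rich in the ribosomal RNA row (ZT10 could not be fitted), 176 were higher on average with CRE, 38 differed among times, 58 were lower and 2 higher at ZT12, 0 higher at ZT18, and 1 lower and 0 higher at ZT22. With that row's share as a covariate, 1 was higher at ZT10, 116 lower and 6 higher at ZT12, 46 higher at ZT14, and 10 lower and 2 higher at ZT18. DESeq2 gave 165 that differed among times with CRE, 74 lower and 10 higher at ZT10, 95 and 51 at ZT14, 23 and 8 at ZT18, 11 and 4 at ZT22, and with food 51 and 33 at ZT13 and 70 higher at ZT14. With only the groups compared, 9 were higher at ZT10, 103 higher at ZT12, 30 lower and 0 higher at ZT13, 25 and 4 at ZT18 and 0 and 0 at ZT22 with CRE, and with food 8 were higher at ZT13, 219 lower and 98 higher at ZT14 and 208 lower at ZT22. Without a filter 8 were lower at ZT18 with CRE. Without the 2 libraries with signs of other tissue 69 were lower at ZT14 with food.

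Leaving out each library in turn gave, with CRE, 351 to 409 lower and 257 to 300 higher on average, 41 to 133 that differed among times, 21 to 38 lower and 0 to 4 higher at ZT10, 118 to 180 and 13 to 37 at ZT12, 159 to 298 and 15 to 136 at ZT13, 27 to 62 and 7 to 28 at ZT14, 1 to 2 and 0 to 0 at ZT18, and 0 to 9 and 0 to 6 at ZT22. With food it gave 557 to 642 lower and 342 to 383 higher on average, 213 to 364 that differed among times, 6 to 56 and 2 to 32 at ZT13, 61 to 100 and 16 to 43 at ZT14, 337 to 524 and 186 to 233 at ZT18, and 233 to 315 and 209 to 262 at ZT22.

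With a replicate block, 382 were lower and 286 higher on average with CRE and 641 and 361 with food, and no count moved by over 1.5 times. Same-numbered samples deviated together with a median correlation of 0.0112 (CRE) and 0.0156 (food), over 0.1 in 8 of 18 and 2 of 12 pairs, so the numbers were not taken to pair the samples.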
